A study of Caenorhabditis elegans with 4 samples.

Results

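The MKS genes of *C. elegans* encode one of the protein modules of the ciliary transition zone. The 9 genes described here, *tctn-1* (E04A4.6), *mks-3* (F35D2.4), *tmem-231* (T26A8.2), *jbts-14* (F53A9.4), *mks-6* (K07G5.3), *mks-1* (R148.1), *mksr-1* (K03E6.4), *mksr-2* (Y38F2AL.2) and *mks-5* (C09G5.8), were taken by name. They are 9 of the 17118 genes on the array and were read by 10 of its 22548 probe sets, 1 for each gene except *jbts-14*, which has 2. Total RNA was taken from embryos that hypochlorite had freed from egg-bearing adults, with no stage given, and was hybridized to 4 Affymetrix chips. Of these, 2 are labelled *daf-19(-)* (*daf-19(m86)* in a *daf-12(sa204)* background) and 2 are labelled *daf-19(+)* (wild type for *daf-19* in the same *daf-12(sa204)* background), with replicates numbered 1 and 2 in each group. Both groups therefore carry the mutation in *daf-12*, a nuclear hormone receptor gene needed for dauer formation, and *daf-19(m86)* takes away the RFX transcription factor on which ciliogenesis depends. Whole embryos were used, so fewer ciliated cells and less RNA per ciliated cell cannot be told apart.

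The names of the groups are in conflict between sources. A supplementary table of the study holds the same signals under the opposite genotypes. Its columns headed *daf-19;daf-12* equal the arrays labelled *daf-19(+)*, and its columns headed *daf-12* equal the arrays labelled *daf-19(-)*, in 1998 of 1998 rows compared for each of the 4 arrays. The main text of the study likewise lists *tctn-1* (as E04A4.6) with expression reduced in *daf-19(-)* animals, at a ratio of 81.7. The same ratio is found here for *daf-19(-)* over *daf-19(+)* as labelled, which is the opposite direction. Which naming is correct could not be settled, so every direction below is that of the arrays as labelled, and it runs opposite to the direction the study gives for ciliary genes. The *daf-19* gene itself, which was the mutated one, had signals of 2493 and 2365 on the arrays labelled *daf-19(-)*, against 768 and 857 on those labelled *daf-19(+)*. A second probe set of the gene read 1456 and 1231 on the arrays labelled *daf-19(-)*, against 440.2 and 460.2 on those labelled *daf-19(+)*. Both were thus 2.99-fold higher on the arrays labelled *daf-19(-)* (adjusted p = 0.00166 and 0.00513, limma). A mutation need not change the level of a gene's own transcript, and these values do not by themselves check the labels.

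A signal is the brightness of a probe set on a linear scale, which the authors scaled on each chip to a target of 500. Signals of different probe sets depend on their probes as well as on the transcript, so each gene is compared only with itself across the arrays. No detection calls were used here, and a signal under 80 was treated as dim. Tested were the 13096 probe sets at or above 80 on at least 2 of the 4 arrays, which represent 9725 genes. The arrays of a group are called biological replicates in the study's supplement, but separate cultures are not described, so that a p-value here reflects the spread of the arrays alone. Correlations of log2(signal + 16) over the tested probe sets were 0.974 between the arrays labelled *daf-19(-)* and 0.96 between those labelled *daf-19(+)*, against 0.935 to 0.962 between arrays of different groups.

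The transition zone is the stretch of the cilium just beyond the basal body, where Y-shaped links tie the microtubule doublets to the membrane. It acts as a gate that controls which proteins enter and stay in the cilium. Its proteins form an MKS module and an NPHP module, and mutations in the human genes of the MKS module cause Meckel and Joubert syndromes. In *C. elegans* the only ciliated cells are sensory neurons, and DAF-19 switches on ciliary genes in them through the X-box, a short motif in their promoters.

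The X-box is shown here because it defines the class of DAF-19 targets among which the study placed *tctn-1* and *mks-6*. The study trained its search on 15 motifs of known ciliary genes, each 14 bases long. The 3 below are those of *daf-19* itself on chromosome II and of *xbx-1* and *osm-6*, a dynein light intermediate chain and an intraflagellar transport protein, both on chromosome V. Capitals mark the 5 positions (1, 7, 8, 13 and 14, counted from the 5′ end) that hold the same base in all 15 motifs.
*daf-19*: GtttccATggaaAC
*xbx-1*: GtttccATggtaAC
*osm-6*: GttaccATagtaAC
The promoters of the MKS genes themselves were not analysed here.

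All 9 MKS genes were higher on both arrays labelled *daf-19(-)* than on either array labelled *daf-19(+)*, with no overlap between the groups, a pattern that 26.9% of all 17118 genes showed. Of the 8 that passed the filter on dim signals, 5 were called higher at an adjusted p under 0.05 (*tctn-1*, *mks-6*, *mks-3*, *mksr-2* and *tmem-231*) and 0 lower (limma, with 7 higher and 0 lower at an unadjusted p under 0.05). Over all tested genes, 0.422% were called higher and 0.0925% lower. Except for *tmem-231*, the called genes had both *daf-19(+)* arrays under 80 and passed the filter only through their *daf-19(-)* arrays. Of the 253 tested genes of that kind, 7.91% were called higher. At an unadjusted p under 0.05 (limma), 1170 of the 9725 tested genes were higher and 770 lower. Without the filter 2 of the 9 were called, against 0.0488% of all probe sets, and with every signal under 80 set to 80 the count was also 2, against 0.115% of the tested probe sets. In both cases these were *tctn-1* and *tmem-231*. The ratio of mean signals, *daf-19(-)* over *daf-19(+)* as labelled, ran from 1.45 for *mks-5* to 81.7 for *tctn-1*. It was at least 2 for 7 of the 9 genes, a size reached by 13.1% of all genes.

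**Figure D1:**
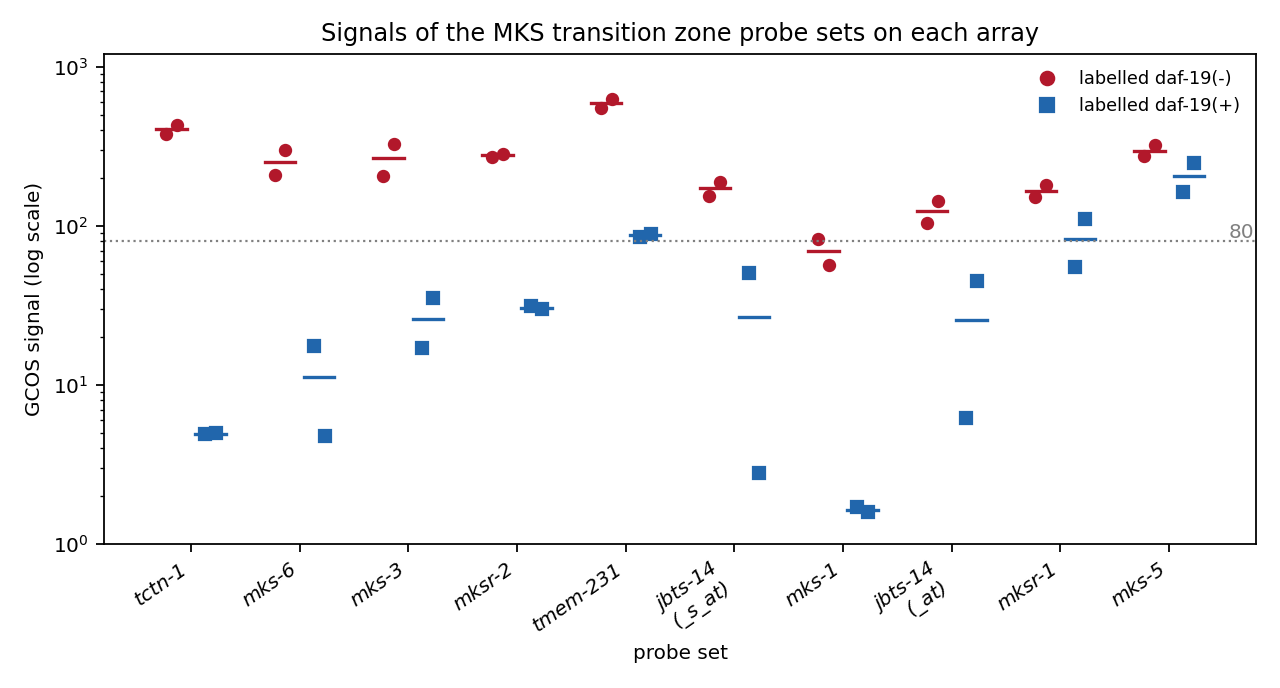
Signals of the 10 MKS probe sets on the 4 arrays, on a log scale, with arrays labelled *daf-19(-)* left of those labelled *daf-19(+)* in each pair. Points are single arrays, short lines are group means of 2 arrays, and the dotted line marks a signal of 80, under which both *daf-19(+)* arrays lie for 7 of the 10 probe sets.

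Of the membrane proteins of the module, *tctn-1* encodes the only tectonic of *C. elegans*. Its signals were 380.4 and 428.5 on the arrays labelled *daf-19(-)*, against 4.9 and 5.0 on those labelled *daf-19(+)*. Both *daf-19(-)* arrays were bright and both *daf-19(+)* arrays close to the bottom of the scale, and the 2 arrays within each group differed little. Means were 404 ± 34.0 for *daf-19(-)* and 4.95 ± 0.071 for *daf-19(+)* (SD, n = 2 each). The log2 fold change was 4.32 (SE 0.43, adjusted p = 0.000225, limma), with a 95% interval of 3.40 to 5.25, and *tctn-1* stood at rank 3 of the 13096 probe sets by log2 fold change. A ratio against signals this low is poorly determined in size. With every signal under 80 set to 80 it was 5.06, in place of 81.7, and the gene was still called.

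The *mks-3* gene encodes the worm counterpart of meckelin (TMEM67), a transmembrane protein with a large extracellular region. Its signals were 206.3 and 325.7 on the arrays labelled *daf-19(-)*, against 17 and 35.3 on those labelled *daf-19(+)*. The groups were far apart although the arrays within each group were not close, and replicate 2 was the brighter in both. Means were 266 ± 84.4 for *daf-19(-)* and 26.2 ± 12.9 for *daf-19(+)*, a ratio of 10.2 and a log2 fold change of 2.74 (SE 0.44, adjusted p = 0.0102, limma). It was still called without replicate 2 of *daf-19(+)* but not without any other single array. Nor was *mks-3* called without the filter (adjusted p = 0.165, limma) or with signals under 80 set to 80 (adjusted p = 0.127, limma).

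The *tmem-231* gene encodes another transmembrane protein of the module, related to human TMEM231. Its signals were 552.6 and 625.8 on the arrays labelled *daf-19(-)*, against 84.6 and 89.5 on those labelled *daf-19(+)*. It was the one called MKS gene with signals above 80 on all 4 arrays, so that its ratio of 6.77 was the same with low signals set to 80. Means were 589 ± 51.8 for *daf-19(-)* and 87.1 ± 3.47 for *daf-19(+)*, with a log2 fold change of 2.55 (SE 0.29, 95% interval 1.94 to 3.16, adjusted p = 0.000667, limma). Like *tctn-1*, *tmem-231* stayed under 0.05 whichever array was left out, with an adjusted p of at most 0.0140.

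The *jbts-14* gene encodes the counterpart of human TMEM237, a transmembrane protein mutated in a form of Joubert syndrome. Its brighter probe set, which also carries the mark for probes shared between transcripts, read 154.9 and 189.4 on the arrays labelled *daf-19(-)*, against 50.4 and 2.8 on those labelled *daf-19(+)*. The dimmer one read 104.7 and 144.3 on the arrays labelled *daf-19(-)*, against 6.2 and 45.1 on those labelled *daf-19(+)*. Both probe sets separated the groups, but they disagreed on which *daf-19(+)* array was the lower one, by a wide margin in each. The log2 fold changes were 2.41 (SE 0.58, adjusted p = 0.0913, limma) for the brighter and 1.92 (SE 0.57, adjusted p = 0.136) for the dimmer probe set, and neither was called. The brighter one was called when either *daf-19(+)* array was left out (adjusted p = 0.0255 and 0.0411) and not when either *daf-19(-)* array was (0.480 and 0.444). With signals under 80 set to 80, its ratio of 6.47 was 2.15.

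**Figure D2:**
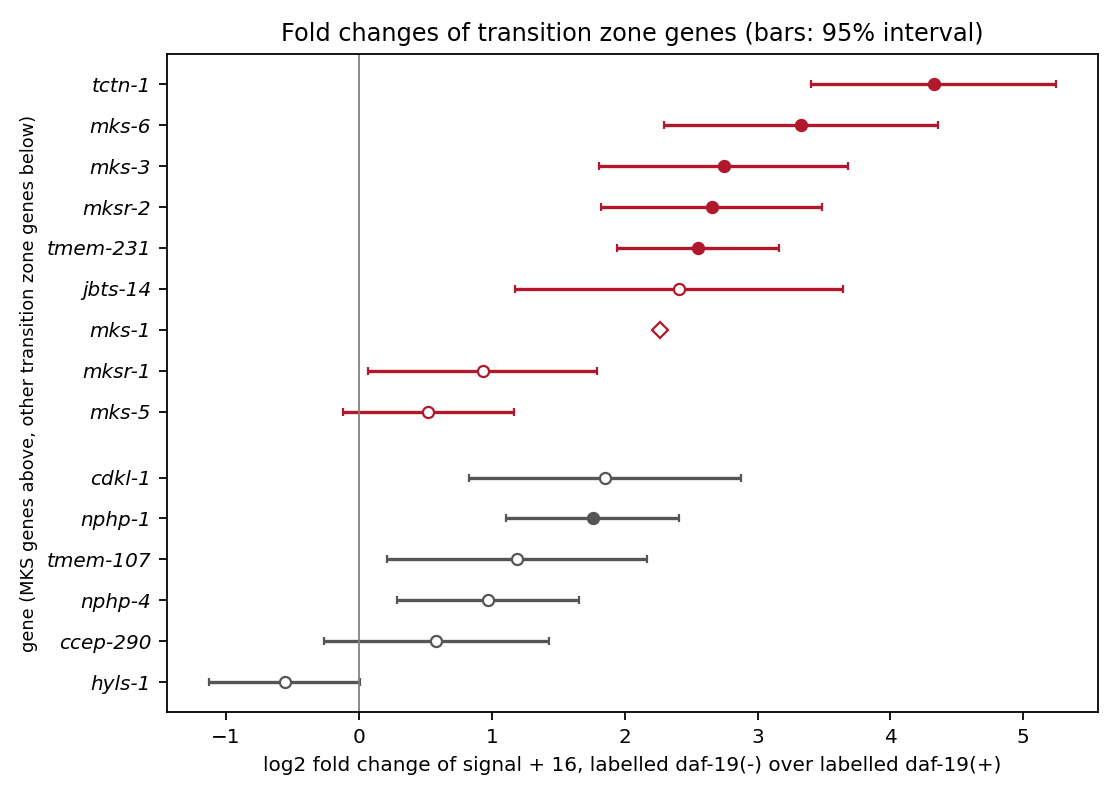
Log2 fold change, *daf-19(-)* over *daf-19(+)* as labelled, on log2(signal + 16), with its 95% interval from limma. Each MKS gene (above) and each of 6 further transition zone genes (below) is shown by its brightest probe set. Filled points have an adjusted p under 0.05 and open points do not, and the open diamond is *mks-1* from the fit without the filter, drawn with no interval. Intervals of neighbouring MKS genes overlap, and those of *mks-5*, *ccep-290* and *hyls-1* span 0.

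The B9 proteins of the module, named after a domain they share, are encoded by *mks-1*, *mksr-1* and *mksr-2*, the counterparts of human MKS1, B9D1 and B9D2. For *mksr-2* the signals were 272.3 and 282.3 on the arrays labelled *daf-19(-)*, against 31.2 and 30.0 on those labelled *daf-19(+)*. The replicates were closely matched in both groups. Means were 277 ± 7.07 for *daf-19(-)* and 30.6 ± 0.849 for *daf-19(+)*, a ratio of 9.06 and a log2 fold change of 2.65 (SE 0.39, adjusted p = 0.00593, limma). Leaving out a *daf-19(-)* array ended the call. It was also lost without the filter (adjusted p = 0.137, limma) and with signals under 80 set to 80 (adjusted p = 0.0556, limma), where the ratio was 3.47.

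The *mksr-1* gene behaved less uniformly. It read 151.4 and 179.5 on the arrays labelled *daf-19(-)*, against 54.9 and 111.2 on those labelled *daf-19(+)*. The groups did not overlap, but replicate 2 of *daf-19(+)* lay above 80, closer to the nearer *daf-19(-)* array than to its own replicate 1. Means were 165 ± 19.9 for *daf-19(-)* and 83.1 ± 39.8 for *daf-19(+)*. The ratio was 1.99, and the log2 fold change of 0.93 (SE 0.40) was not called (adjusted p = 0.246, limma). It depended on the *daf-19(+)* arrays, since the ratio was 1.49 without replicate 1 and 3.01 without replicate 2.

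For *mks-1* the signals were 82.9 and 57.1 on the arrays labelled *daf-19(-)*, against 1.7 and 1.6 on those labelled *daf-19(+)*. It was dim everywhere, with 1 array above 80, and was therefore not tested. The means of 70.0 ± 18.2 for *daf-19(-)* and 1.65 ± 0.071 for *daf-19(+)* give a ratio of 42.4, which became 1.02 with signals under 80 set to 80. In the fit without the filter its log2 fold change was 2.27 (SE 0.51, adjusted p = 0.281, limma). The size of its difference cannot be read from these arrays.

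The *mks-6* gene encodes a C2-domain protein, the counterpart of human CC2D2A. Its signals were 207.9 and 297.8 on the arrays labelled *daf-19(-)*, against 17.6 and 4.8 on those labelled *daf-19(+)*. Both *daf-19(+)* arrays were far below the *daf-19(-)* ones, and replicate 2 was the lower of them. Means were 253 ± 63.6 for *daf-19(-)* and 11.2 ± 9.05 for *daf-19(+)*, with a log2 fold change of 3.33 (SE 0.48, adjusted p = 0.00593, limma). The ratio of 22.6 was 52.7 without replicate 1 of *daf-19(+)* and 14.4 without replicate 2, and it was 3.16 with low signals set to 80. Leaving out either *daf-19(-)* array ended the call. It was also lost without the filter (adjusted p = 0.118, limma) and with signals under 80 set to 80 (adjusted p = 0.119, limma).

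The *mks-5* gene encodes the counterpart of human RPGRIP1L, a scaffold on which both the MKS and the NPHP proteins depend for their place in the transition zone. It read 273.2 and 321.5 on the arrays labelled *daf-19(-)*, against 163.0 and 248.1 on those labelled *daf-19(+)*. All 4 arrays were well above 80, and the gap between the groups was smaller than that between the *daf-19(+)* arrays. Means were 297 ± 34.2 for *daf-19(-)* and 206 ± 60.2 for *daf-19(+)*, a ratio of 1.45. The log2 fold change of 0.52 (SE 0.30) was not called (adjusted p = 0.363, limma), and its 95% interval ran from -0.12 to 1.17. The log2 fold changes of *tctn-1* and *mks-5*, whose 95% intervals did not overlap, differed by 3.80 ± 0.52 (SE, with the genes taken as independent). The size of that difference rests on *daf-19(+)* signals of *tctn-1* near the bottom of the scale. It was 1.61 ± 0.39 with signals under 80 set to 80.

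Ordered by log2 fold change, the 8 tested genes were *tctn-1*, *mks-6*, *mks-3*, *mksr-2*, *tmem-231*, *jbts-14*, *mksr-1* and *mks-5*. The order depends on how signals under 80 are treated, since with these set to 80 *tmem-231* came first at 2.55, before *tctn-1* at 2.13, *mksr-2* at 1.61, *mks-3* at 1.52 and *mks-6* at 1.47. With signals as deposited, no neighbours in the order were separated by their 95% intervals. The widest step lay between *jbts-14* and *mksr-1*, at 1.48 ± 0.70 on the log2 scale (difference and SE, with the genes taken as independent). The next widest lay between *tctn-1* and *mks-6*, at 1.00 ± 0.64. Between *mks-3*, *mksr-2* and *tmem-231*, of which *mksr-2* encodes a B9 protein and the others transmembrane proteins, the steps were 0.09 ± 0.58 and 0.10 ± 0.48. The median log2 fold change was 2.60 over the 8 tested genes and 2.55 over all 9 without the filter, against 0.06 over all tested genes. The filter bears on these figures, since 6 of the 9 genes had both *daf-19(+)* arrays under 80, as 43.0% of all genes did, and 5 of these 6 passed through their *daf-19(-)* arrays. In all, 253 tested genes were of this kind, these 5 included. They pass only with both *daf-19(-)* arrays at 80 or more, so the filter itself fixes their log2 fold changes above 0. Their median was 1.00, and 7.91% of them were called higher.

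A ratio was also taken between arrays with the same replicate number, as the study's supplement sets them side by side. Whether a number stands for 1 experiment is not stated outright. The ratio was at least 2 in both pairs for 7 of the 9 MKS genes (8 of the 10 probe sets), against 5.49% of all genes. For *tmem-231*, with all signals above 80, it was 6.53 for replicate 1 and 6.99 for replicate 2. For *tctn-1* it was 77.6 and 85.7, and for *mksr-2* 8.73 and 9.41, in both cases over *daf-19(+)* signals under 80, which leave the size of a ratio poorly determined. The *mks-6* gene gave 11.8 and 62.0, and the brighter *jbts-14* probe set 3.07 and 67.6, since in each a single *daf-19(+)* array was under 5. Replicate 2 of *daf-19(-)* was the brighter one for 9 of the 10 probe sets.

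**Figure D3:**
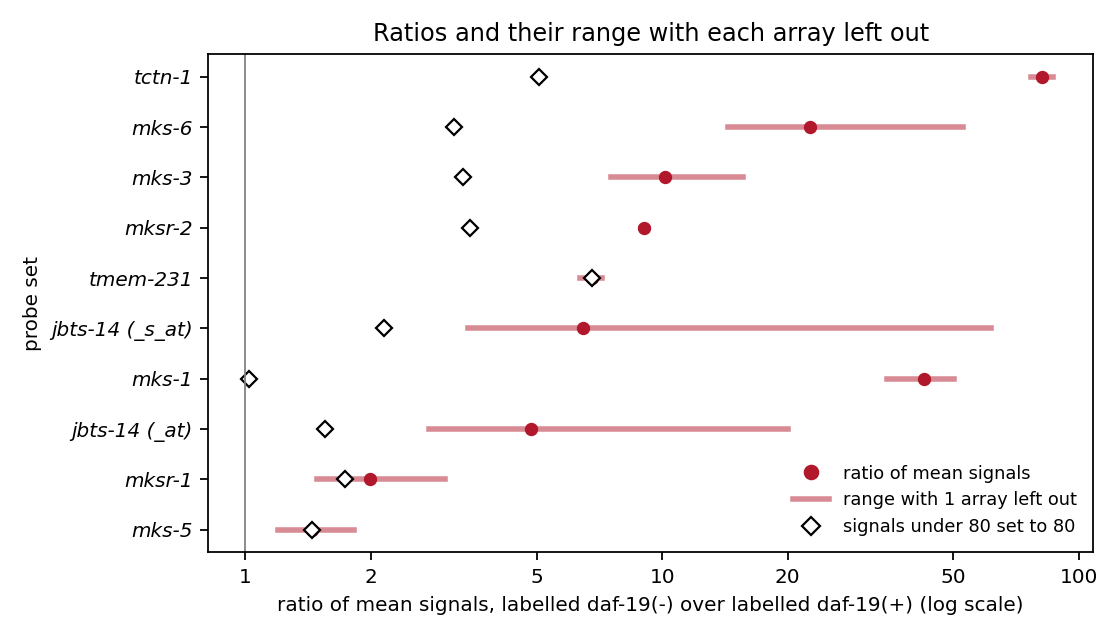
Ratio of mean signals, *daf-19(-)* over *daf-19(+)* as labelled, of each MKS probe set on a log scale. Dots are the ratios of all 4 arrays, bars span the ratios with 1 array left out, and open diamonds are the ratios with signals under 80 set to 80, which lie at 1.02 for *mks-1* and 5.06 for *tctn-1*.

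Of 10 further genes of the transition zone, 6 had a probe set of their own and all 6 were tested. Among them 1 was called higher and 0 lower (limma, with 4 higher and 0 lower at an unadjusted p under 0.05), and their median log2 fold change was 1.08. Of all 9725 tested genes, 0.422% were called higher and 0.0925% lower, and 1170 were higher and 770 lower at the unadjusted threshold. The called gene was *nphp-1*, which encodes nephrocystin-1 of the NPHP module. It read 353.5 and 487.5 on the arrays labelled *daf-19(-)*, against 103.3 and 120.3 on those labelled *daf-19(+)* (log2 fold change 1.76, SE 0.30, adjusted p = 0.0183, limma). Its partner *nphp-4* read 267.3 and 265.7 on the arrays labelled *daf-19(-)*, against 106.7 and 153.2 on those labelled *daf-19(+)* (adjusted p = 0.163), by the brighter of its 2 probe sets. Its other probe set read 212.4 and 306.3 on the arrays labelled *daf-19(-)*, against 78.9 and 102.1 on those labelled *daf-19(+)* (adjusted p = 0.103, limma). The kinase gene *cdkl-1* read 156.9 and 120.9 on the arrays labelled *daf-19(-)*, against 36.4 and 18.7 on those labelled *daf-19(+)* (adjusted p = 0.107). With either *daf-19(-)* array left out none of the 6 was called.

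The module's *tmem-107*, which encodes a membrane protein, read 92.9 and 145.8 on the arrays labelled *daf-19(-)*, against 40.7 and 43.8 on those labelled *daf-19(+)* (adjusted p = 0.203, limma). The *ccep-290* gene, which encodes the CEP290 counterpart of the central transition zone, read 107.9 and 150.0 on the arrays labelled *daf-19(-)*, against 81.2 and 78.4 on those labelled *daf-19(+)* (adjusted p = 0.438). Neither was called. By these probe sets both were higher without overlap between groups, a pattern that 26.9% of all genes showed. The dimmer probe set of *ccep-290* read 18.5 and 45.2 on the arrays labelled *daf-19(-)*, against 42.9 and 1.3 on those labelled *daf-19(+)*, which overlap. It was too dim to be tested. The *hyls-1* gene, whose product sits on centrioles and is needed to build a cilium, was the only one of the 6 with a ratio under 1. It read 637.7 and 442.8 on the arrays labelled *daf-19(-)*, against 982.4 and 637.3 on those labelled *daf-19(+)*, which overlap (adjusted p = 0.277). No probe set here named *mks-2*, *tmem-218* or *nphp-2*, and the one listed for *tmem-17* also names another gene.

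Lists of other ciliary genes were read beside the MKS genes. Of 13 genes of intraflagellar transport complex B on the array, which carries cargo out along the cilium, 12 were tested and 5 called higher, against 0.422% of all tested genes, with a median log2 fold change of 2.09 over the 13. Their values were not all on 1 side, since *dyf-11* read 65.0 and 80.1 on the arrays labelled *daf-19(-)*, against 100.6 and 136.8 on those labelled *daf-19(+)* (log2 fold change -0.60, adjusted p = 0.443, limma). Of 7 Bardet-Biedl genes, which encode the BBSome coat and its partners, 5 were tested and 1 was called higher, with a median of 1.99 over the 7. Both *daf-19(+)* arrays were under 80 for 11 of the 13 complex B genes and for all 7 Bardet-Biedl genes. Of all tested genes of that kind, 7.91% were called higher. The count called lower was 0 in both lists, also at an unadjusted p under 0.05. The differences between the medians of these lists were not tested.

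**Figure D4:**
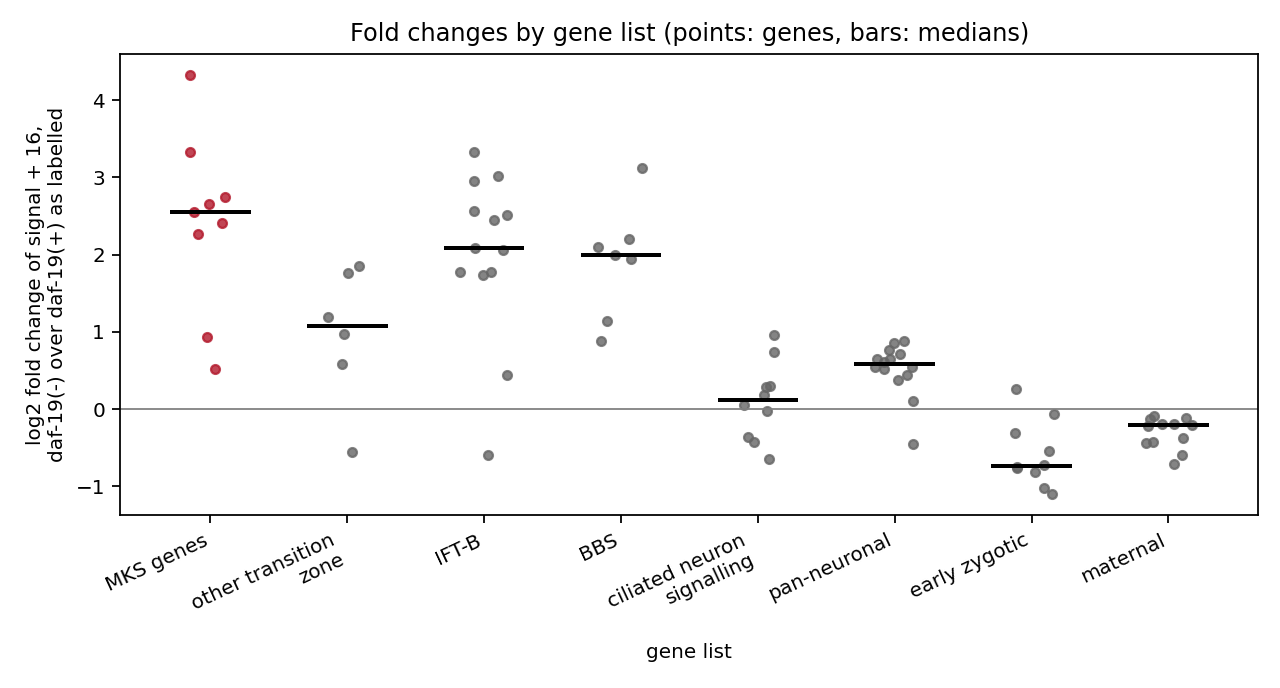
Log2 fold changes, *daf-19(-)* over *daf-19(+)* as labelled, from the fit without a filter on dim signals, for the MKS genes and the comparison and marker lists. Points are genes and bars are medians, which lie at 2.55 for the MKS genes, 0.12 for ciliated sensory neuron signalling and 0.58 for pan-neuronal genes.

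Lists of cell type and stage markers gave values that move with the groups in part. The summed signals of the 9 MKS genes were 2282 and 2708 on the arrays labelled *daf-19(-)*, against 425.3 and 528.3 on those labelled *daf-19(+)*. For 10 signalling genes of ciliated sensory neurons the sums were 1879 and 1945 on the arrays labelled *daf-19(-)*, against 1648 and 2151 on those labelled *daf-19(+)*, which overlap. Most of each sum is the signal of *odr-4* alone, at 1532 and 1400 on the arrays labelled *daf-19(-)*, against 1348 and 1639 on those labelled *daf-19(+)*. Of these 10, 4 were tested and 0 were called in either direction (limma, 0 also at an unadjusted p under 0.05). Their median log2 fold change was 0.12, and 5 (*gpa-3*, *ocr-2*, *odr-1*, *osm-9* and *tax-2*) were under 80 on all arrays. Of 14 pan-neuronal genes, 12 were tested and 0 were called (limma, 5 higher at an unadjusted p under 0.05), and 10 were higher without overlap, against 26.9% of all genes, with a median of 0.58 and sums of 12066 and 11445 on the arrays labelled *daf-19(-)*, against 7510 and 10113 on those labelled *daf-19(+)*. All 5 intestinal markers and 4 of 6 body wall muscle markers were also higher without overlap, with medians of 0.43 and 0.37 and 0 called in either list (limma, 3 and 2 higher at an unadjusted p under 0.05). At that unadjusted threshold, 1170 of all 9725 tested genes were higher. The intestinal sums were 15010 and 12200 on the arrays labelled *daf-19(-)*, against 8249 and 10946 on those labelled *daf-19(+)*, and the muscle sums were 11705 and 10253 on the arrays labelled *daf-19(-)*, against 6695 and 10050 on those labelled *daf-19(+)*.

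Markers of early embryos ran the other way. Of 10 early zygotic genes, 8 were tested and 0 were called (limma, 5 lower at an unadjusted p under 0.05), and 8 were lower without overlap, with a median log2 fold change of -0.73 and sums of 3043 and 2768 on the arrays labelled *daf-19(-)*, against 4692 and 4012 on those labelled *daf-19(+)*. Over all genes, 18.1% were lower without overlap, and 770 of the 9725 tested genes were lower at an unadjusted p under 0.05 (limma). Maternal transcripts had a median of -0.21 over 12 genes, and the cuticle genes of late embryos one of 0.10 over 9 genes, with 0 called in either list (limma, at an unadjusted p under 0.05 2 maternal genes lower and 0 cuticle genes in either direction). Yolk protein genes of the adult, of which 1 of 5 was tested and not called, summed to 202.3 and 161.1 on the arrays labelled *daf-19(-)*, against 131.8 and 1001 on those labelled *daf-19(+)*, where replicate 2 stood apart. The part that the age of the embryos or these marker shifts have in the values of the MKS genes was not tested.

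The genes beside the MKS genes on the chromosomes were read in the same way. RefSeq lists 18 protein-coding neighbours, of which 14 were on the array and 10 were tested, with 0 called (limma, 4 at an unadjusted p under 0.05) and a median log2 fold change of 0.29 over the 10, or 0.33 over the 14 without the filter. Of all 9725 tested genes, 1170 were higher and 770 lower at that unadjusted threshold. Without overlap between the groups, 7 of the 14 neighbours were higher, against 26.9% of all genes, and 4 of the 14 had a ratio under 1. Among the higher ones were *syd-1* beside *mks-3* and *unc-1* beside *mksr-1*, with ratios of 1.55 and 1.59. The neighbours of *tctn-1* were *timm-17B.1*, at 1292 and 1152 on the arrays labelled *daf-19(-)*, against 1957 and 1391 on those labelled *daf-19(+)*, and *cyc-2.1*, a cytochrome c gene, with a ratio of 1.02. Beside *mks-6*, the repair gene *xpa-1* had a ratio of 0.652. The largest ratio was that of T26A8.3 next to *tmem-231*, at 51.8 and 41.4 on the arrays labelled *daf-19(-)*, against 10.7 and 4.4 on those labelled *daf-19(+)*, all too dim to be tested. In RefSeq *mks-3* overlaps F35D2.6 and *mks-5* overlaps C09G5.14, and neither of these has a probe set here.

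Profiles most like that of the MKS genes were sought among tested genes by the mean absolute difference, over the 4 arrays, of log2(signal + 16) centred on its mean, from the median profile of the members. The nearest genes were *nssp-59* at 0.125, *xbx-1* at 0.163, F47G4.5 at 0.209, *osm-5* at 0.218 and K08C7.4 at 0.231. Of these, *xbx-1* encodes a dynein light intermediate chain of ciliary transport and *osm-5* a subunit of complex B. Among the members, *tmem-231* at 0.003 and *mksr-2* at 0.054 lay nearest to the median profile, and *tctn-1* at 0.890 and *mks-5* at 1.01 farthest from it, on opposite sides in the size of the difference between groups. Likeness over 4 arrays is a description with no test, and nothing about function follows from it.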

How the data were processed

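Affymetrix *C. elegans* genome arrays were used for 4 RNA samples of embryos. The deposited values are linear signal intensities, which the authors made with GCOS, whose version is not given in the sources used here, scaling each chip to a target of 500. Of 22625 probe sets, 77 controls were left out. Symbols were updated through RefSeq (WBcel235) for 20701 of 20766 probe sets naming 1 gene. Probe sets naming several genes (887) or not listed (895) stayed unnamed. Each gene was represented by its brightest probe set.

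Groups follow the deposited labels. Values of log2(signal + 16) were fitted with limma 3.58.1 (R 4.3.3; lmFit, then eBayes with trend) and tested on both sides for the 13096 probe sets at 80 or more on at least 2 arrays, with Benjamini-Hochberg adjusted p under 0.05 over all of them. Ratios use the signals without the offset. Median signals per array were 136.2 and 144.4 for *daf-19(-)* and 106.0 and 126.8 for *daf-19(+)*, and 4 arrays limit the precision. The script was tested on simulated data.

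The genes named are the members, *daf-19*, 10 other transition zone genes and the 5 nearest profiles. Neighbours and the marker lists were added. Members and lists were chosen with earlier results of these data known. Alternatives were the offset, the filter, quantile normalization, the variance trend, a replicate block, shared probe sets, the mean of a gene's probe sets and leaving out each array. A supplementary table with fold changes by the authors served only to compare the array names.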

Additional observations from a re-analysis of the deposited data

How the results depend on the processing

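The 5 MKS genes called higher were 5 also with an offset of 1 or 64, a filter at 200, quantile normalization, no variance trend, no shared probe sets, or the mean of a gene's probe sets. They were 2 without a filter and 2 with signals under 80 set to 80. Fewer were called without either *daf-19(-)* array, and more without replicate 2 of *daf-19(+)*. In such fits the lone array of a group is assumed to vary like the others. *tctn-1* and *tmem-231* were called in each of these fits. The count of MKS genes called lower was 0 throughout. Shares over all genes or probe sets were taken only for the main fit, no filter, signals under 80 set to 80 and the replicate block. Counts under the other settings have no such share beside them, here and for the further transition zone genes. They are therefore not read as results about these genes.

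The 1 further transition zone gene called higher was 0 without a filter, 0 with signals under 80 set to 80, 0 without the variance trend and 0 without shared probe sets (its probe set is one). With 1 array left out this count moved in both directions. The median log2 fold change of the tested MKS genes, 2.60, was 3.24 with an offset of 1, 1.85 with an offset of 64, 1.49 with signals under 80 set to 80, and 2.45 to 2.66 with 1 array left out. For single genes, 96 alternative values kept direction and side of the threshold, 13 fell short of it, 5 passed it and none reversed. The causes of these changes were not tested. Setting signals under 80 to 80, and the replicate block without a filter, were added after seeing the data. The arrays share replicate numbers and the study's supplement gives a fold for each number, but no source ties a number to a culture or day, and deviations of same-numbered arrays correlated at 0.121 over 2 pairs. With the replicate number as a block, where limma took all variances from the trend, 4.7% of all tested genes were called higher. The MKS genes called were then 6, with *jbts-14* added (adjusted p = 0.000291 and 0.0125 for its probe sets), and the further transition zone genes 3, with *nphp-4* and *cdkl-1* added (0.0480 and 0.00988). With the block and no filter, *jbts-14* (0.0601 and 0.119), *nphp-4* (0.214) and *cdkl-1* (0.112) were not called. Median signals near the dim limit restrict what can be said of *mks-1* and *jbts-14*. The *tctn-1*, *mks-3*, *mks-6* and *mksr-2* genes also had both *daf-19(+)* arrays under 80. Of these, *mks-3*, *mks-6* and *mksr-2* were not called without the filter or with signals under 80 set to 80. The planned search of promoters for the X-box was not run, since no promoter sequence was used here.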
